A study of Mus musculus with 4 samples.

Results

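Cd9, Cd81, Folr4, Kit, Gja4 and Gja1, genes of the oocyte surface, were followed through meiotic maturation. They were chosen by name as genes through which the egg meets sperm and the follicle, and each was matched by its symbol in the deposited tables, which gave 6 of 23309 gene symbols. The series measured mRNA in oocytes of ICR mice at the GV stage (germinal vesicle, before meiosis resumes) and at MII (arrest in meiosis II, as the ovulated egg). The 4 groups were Erk-/- MII, wild-type MII, Erk-/- GV and wild-type GV, each with 1 library made from 60 oocytes of females 21 to 23 days old. The labels do not give the alleles behind Erk-/-, the exons removed or any Cre driver, and the treatment text names Btg4-/- females where the sample labels say Erk-/-. The design text speaks of single oocytes. The hormones PMSG and hCG are named for all samples together, without saying which library received which.

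CD9 and CD81 are related tetraspanins, small membrane proteins that organise others around them. Eggs of mice without Cd9 bind sperm but rarely fuse with them, and Cd81 adds to this function. Folr4 encodes JUNO, a protein of the folate receptor family that serves on the egg as the receptor for the sperm protein IZUMO1. Kit encodes the receptor tyrosine kinase through which Kit ligand from granulosa cells supports oocyte growth. Gja4 and Gja1 encode connexin 37 and connexin 43, gap junction proteins. Connexin 37 couples the oocyte to its granulosa cells, and connexin 43 mainly couples granulosa cells to each other.

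Values are FPKM (sequenced fragments per transcript length and per library total), given with the authors' lower and upper bound where the value lies inside its own bounds. The bounds cover uncertainty within a library only, and with 1 library per group no difference could be tested against the spread between animals or pools of oocytes. FPKM is relative to each library's total, so a loss of one mRNA and a gain of the others cannot be told apart, nor can fewer cells of a type and less RNA per cell. Summed FPKM ran from 401160 to 453226 over the 4 libraries and no read counts are given. All 9 oocyte marker genes were above 1 FPKM in every library, with Gdf9 at 3611 to 5635 FPKM. Mapk3, the gene of ERK1, had 52.3 FPKM in Erk-/- GV and 333 in wild-type GV. At MII it had 34.3 FPKM in the library labelled Erk-/- and 25.7 in wild type, so its level does not go with the genotype label there, and that library is called by its label throughout.

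The fusion protein gene Cd9 (mm9 chromosome 6, 125410284 to 125444773) was the member that differed most between genotypes at MII. It had 101 FPKM in the MII library labelled Erk-/-, 9.34 in wild-type MII (bounds 6.73 to 10.8), 200 in Erk-/- GV and 82.3 in wild-type GV. The wild-type egg was thus the library with little Cd9 mRNA, and the MII library labelled Erk-/- lay above wild-type GV. The ratio between genotypes was 10.8-fold at MII and 2.43-fold at GV, so Cd9 was higher in Erk-/- before maturation as well.

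Cd81 (chromosome 7, 150238655 to 150253835) was scarce throughout. It had 4.76 FPKM in the MII library labelled Erk-/- (3.62 to 5.89), 1.83 in wild-type MII (1.18 to 2.49) and 0.173 in Erk-/- GV (0 to 0.520), and it was listed at 0 in wild-type GV. Unlike the other fusion gene it was higher at MII than at GV in both genotypes, and the bounds of the MII libraries do not overlap. Its locus overlaps that of R74862, which was listed at 0 in all 4 libraries.

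Folr4 (chromosome 9, 14690258 to 14708395) had 122 FPKM in the MII library labelled Erk-/- (114 to 130), 30.2 in wild-type MII (26.9 to 33.6), 330 in Erk-/- GV (314 to 346) and 334 in wild-type GV (323 to 350). The GV libraries overlap in their bounds and the MII libraries do not. The JUNO transcript was 1.01-fold lower in Erk-/- at GV, an order that turned under both rescalings tried, and it was 4.04-fold higher in the MII library labelled Erk-/- than in wild-type MII (3.41 to 4.83 from the outer bounds). Folr1 and Folr2, the other folate receptors in the tables, reached at most 0.206 FPKM in any library.

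Kit (chromosome 5, 75971012 to 76052746) had 98.0 FPKM in the MII library labelled Erk-/- (95.1 to 102), 44.5 in wild-type MII (42.3 to 46.9), 89.2 in Erk-/- GV (85.5 to 93.4) and 99.0 in wild-type GV (96.5 to 103). Wild-type MII was lower than the other libraries, which stood close together. The ratio between genotypes was 2.20-fold at MII (2.03 to 2.42) and 0.900-fold at GV (0.828 to 0.967). At MII it stood at 110% of its GV level in the libraries labelled Erk-/- and at 45.0% in wild type, the largest share among the 4 members with a mean of at least 10 FPKM.

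Gja4 (chromosome 4, 126988664 to 126991283) had the highest listed value of the members at GV. In wild-type GV, though, that value exceeds its own upper bound, and the bounds of Gja4 overlap those of Folr4. It had 111 FPKM in the MII library labelled Erk-/-, 27.1 in wild-type MII (22.5 to 28.5), 486 in Erk-/- GV and 366 in wild-type GV. Both MII libraries lay below both GV libraries. The genotypes were 4.08-fold apart at MII and 1.33-fold apart at GV, with the library labelled Erk-/- higher at each stage.

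The granulosa connexin gene Gja1 (chromosome 10, 56097106 to 56110225) was listed at 0 in both MII libraries. It had 7.71 FPKM in Erk-/- GV (6.41 to 8.96) and 0.0309 in wild-type GV (0 to 0.0876). Erk-/- GV was thus the single library with more than a trace of Gja1. Markers of granulosa and cumulus cells were looked at beside it. Of 20 such genes, 12 were listed at 0 in the MII library labelled Erk-/- and 15 in wild-type MII. At GV 15 were listed at 0 in Erk-/- GV and 15 in wild-type GV, among them Fshr, Foxl2 and Amh, which were at 0 in all 4 libraries. Of all 23309 symbols ranked from the highest, 0 began at rank 10829 in the MII library labelled Erk-/-. It began at rank 9135 in wild-type MII and 10058 in wild-type GV, so most symbols were at 0 there. For Erk-/- GV this rank was not taken. The summed level of the 20 markers was 43.9 FPKM in the MII library labelled Erk-/-, 50.9 in wild-type MII, 59.2 in Erk-/- GV and 33.1 in wild-type GV. Inha, an inhibin subunit gene, had 11.3 FPKM in Erk-/- GV and 3.80 in wild-type GV, the transcription factor gene Nr5a2 had 17.0 in Erk-/- GV and 6.84 in wild-type GV, and Gata4 had 29.7 in Erk-/- GV and 4.17 in wild-type GV. In the MII libraries, where Gja1 was at 0, Gata4 had 28.5 FPKM in the one labelled Erk-/- and 26.0 in wild type. In the opposite direction at GV, Cyp19a1, the aromatase gene, was listed at 0 in Erk-/- GV and had 15.5 FPKM in wild-type GV. Kitl was listed at 0 in Erk-/- GV and had 2.75 in wild-type GV. At MII Cyp19a1 had 10.8 FPKM in the library labelled Erk-/- and 21.8 in wild type, and Kitl had 1.61 and 0. Of the 5 granulosa markers that averaged 1 FPKM or more, 3 were thus higher and 2 lower in Erk-/- GV. Of 9 markers of other ovarian and blood cells, 8 were listed at 0 in Erk-/- GV and 8 in wild-type GV, and Pecam1 made up the whole sum (42.9 FPKM in Erk-/- GV and 25.6 in wild-type GV). The part of other cells in the Gja1 value was not tested.

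**Figure D1:**
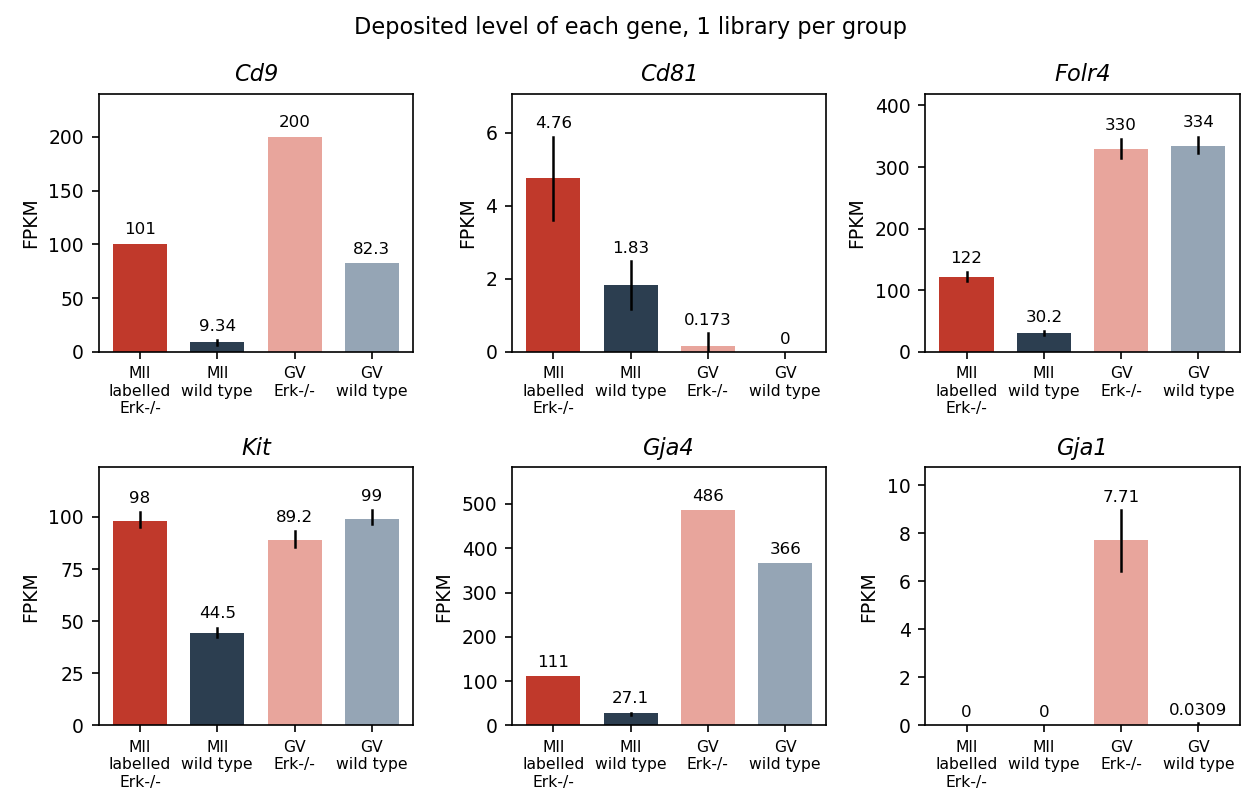
Deposited FPKM of each gene (vertical axis, linear, a scale of its own per panel) in the 4 libraries, 1 bar per library with its value printed above. Black lines are the authors' bounds, drawn where the value lies inside them; wild-type MII is the lowest library for Cd9, Folr4, Kit and Gja4, with 9.34, 30.2, 44.5 and 27.1 FPKM.

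The order of the members changed with maturation. In Erk-/- GV it ran from Gja4 through Folr4 and Cd9 to Kit. In wild-type GV Gja4 and Folr4 came before Kit, and Kit before Cd9, but no order between Gja4 and Folr4 can be given, since Gja4 exceeds its own upper bound and its bounds overlap those of Folr4. In wild-type MII Kit came first with 44.5 FPKM, and the next in order, Folr4 and Gja4, overlap in their bounds. In the MII library labelled Erk-/- the abundant members lay within 98.0 to 122 FPKM, and since Cd9 and Gja4 exceed their own upper bounds there, no order among Cd9, Gja4 and Kit can be given. The 6 genes summed to 436 FPKM in the MII library labelled Erk-/-, 113 in wild-type MII, 1113 in Erk-/- GV and 881 in wild-type GV, which is 0.105%, 0.0282%, 0.264% and 0.194% of all FPKM.

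For counts over genes, log2((FPKM + 1)/(FPKM + 1)) was taken over the 9990 genes that averaged 1 FPKM or more, a scale that understates the change of low genes, and a ratio of at least 2-fold was counted as higher or lower. All 6 members passed this filter, Cd81 mainly through the MII libraries (mean 1.69 FPKM) and Gja1 through Erk-/- GV alone (mean 1.94). A difference toward those libraries was therefore fixed by the filter for Cd81 and Gja1, and nothing is read from their place in the counts. In wild type, 4 of 6 members were lower at MII than at GV (Cd9, Folr4, Kit and Gja4), where 49.6% of all genes were lower. Cd81 was higher, as were 20.6% of genes. Without Cd81 and Gja1, 4 of 4 members were lower, against 48.2% of genes that averaged 10 FPKM or more. The median log2 ratio was -2.07 over the members and -0.97 over all genes. Without Cd81 and Gja1 it was -3.22, against -0.85 over genes that averaged 10 FPKM or more. On this log2 scale the ratio was -3.70 for Gja4, -3.42 for Folr4, -3.01 for Cd9 and -1.14 for Kit, and 12.8% of genes had a ratio below that of Gja4 and 47.7% one below that of Kit. Kit is the call that depends on scaling. Its log2 ratio was -0.97 with libraries rescaled to equal sums. With each library divided by its median-of-ratios size factor the log2 ratio of Kit was -0.32, while those of Cd9, Folr4 and Gja4 were -2.23, -2.61 and -2.89. This scaling shifted the all-gene median by 0.67, and put the share of higher genes among all 2-fold differences at 42.3%, against 29.3% as deposited.

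In the libraries labelled Erk-/-, 3 of 6 members were lower at MII than at GV (Folr4, Gja4 and Gja1), where 35.6% of genes were lower, and Cd81 was higher, as were 22.9%. Without Cd81 and Gja1, 2 of 4 members were lower, against 35.0% of genes that averaged 10 FPKM or more. Folr4 stood at 37.0% of its GV level, against 9.04% in wild type. Gja4 stood at 22.8%, against 7.42% in wild type. Cd9 was at 50.3%, just short of the 2-fold mark, and at 11.3% in wild type. Among Kit, Cd9, Folr4 and Gja4 the listed share of Kit was the largest in both genotypes. No order among Cd9, Folr4 and Gja4 can be given, since Cd9 and Gja4 exceed their own upper bounds in both GV libraries.

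**Figure D2:**
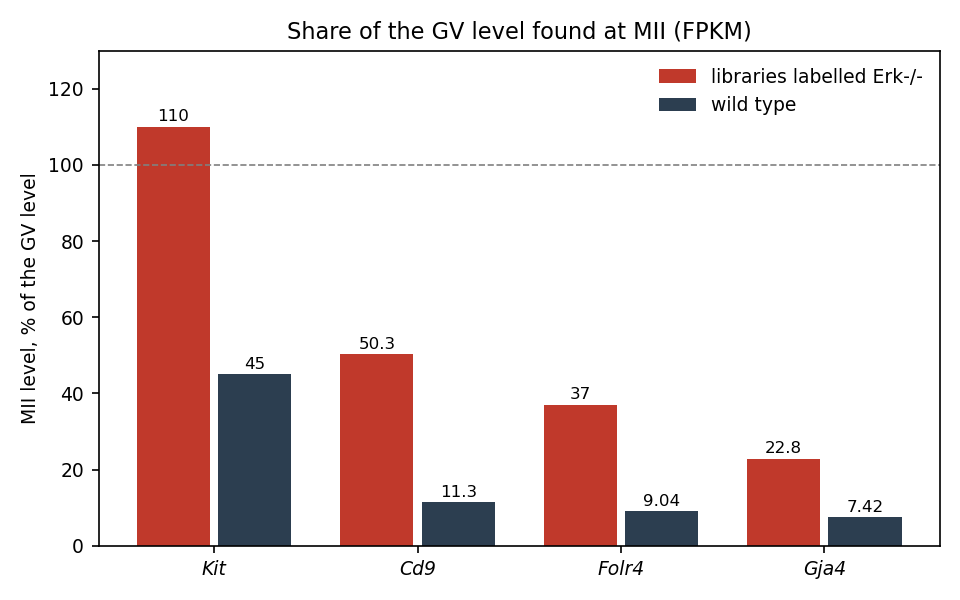
MII level as a percentage of the GV level (FPKM, linear axis) for the members of at least 10 FPKM on average, with the libraries labelled Erk-/- left of wild type and a dashed line at 100%. In each gene the bar of the libraries labelled Erk-/- is the taller, from 110% against 45.0% for Kit to 22.8% against 7.42% for Gja4.

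Between genotypes at MII, 5 of 6 members were at least 2-fold higher in the library labelled Erk-/- than in wild type, where 31.4% of all genes were higher, and none was lower (7.43% of genes). Gja1 was at 0 in both. The median log2 ratio was 1.55 over the members and 0.31 over all genes. Without Cd81 and Gja1 it was 1.98, against 0.32 over genes that averaged 10 FPKM or more. Of all genes tested 97.0% had a lower ratio than Cd9. Of the 9 genes of the oocyte marker list, 6 were higher in the MII library labelled Erk-/-, and the median log2 ratio of the list was 1.93. Gdf9, Dppa3 and Oosp1 lay slightly the other way, at -0.10, -0.05 and -0.25. The part of the marker genes in the result was not tested. At GV, 2 of 6 members were higher in Erk-/- (Cd9 and Gja1), against 18.4% of genes, and none was lower (22.9% of genes). Without Cd81 and Gja1, Cd9 alone was higher at GV, 1 of 4 members against 12.2% of genes that averaged 10 FPKM or more, and at MII 4 of 4 were higher, against 33.1%. Under median-of-ratios scaling the median of all genes at MII moved by -0.31, and the share of higher calls among all 2-fold differences was 59.1%, against 80.9% as deposited. With this scaling 24.6% of all genes were higher. Of the members Cd9, Folr4 and Gja4 were then still at least 2-fold higher (log2 2.80, 1.46 and 1.47), and Kit and Cd81 were not (0.60 and 0.64).

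The GV libraries give a measure of how far abundant genes differ between these libraries before maturation. Among the 2498 genes of highest expression, 95% differed by less than 1.69 log2 units between Erk-/- and wild type at GV. At MII Cd9, Folr4 and Gja4 lay past that limit (3.30, 1.98 and 1.99), as did 18.8% of these genes in that direction, and Kit (1.12) did not. Under median-of-ratios scaling the limit was 1.66. Of the members Cd9 alone lay past it, as did 13.3% of these genes in that direction.

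**Figure D3:**
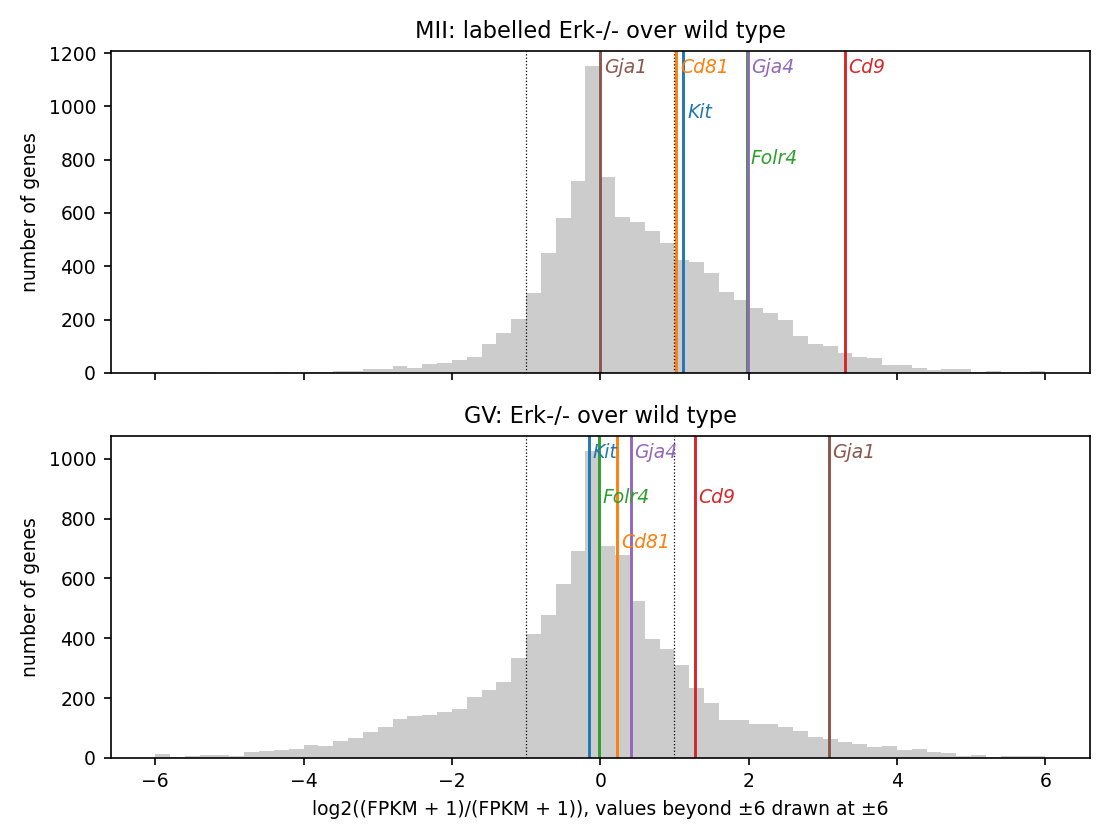
Distribution of the log2 ratio between genotypes (horizontal axis) over 9990 genes (grey, number of genes) at MII and at GV, with a coloured line per member and dotted lines at 2-fold. At MII the lines lie from 0 for Gja1 to 3.30 for Cd9, and at GV 4 of the 6 lie between the dotted lines.

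Subtracting the wild-type log2 ratio of MII over GV from that of the libraries labelled Erk-/- gave at least 1 for 4 of 6 members (41.2% of genes) and at most -1 for Gja1 (18.8% of genes), whose value comes wholly from the library through which it passed the filter. It gave 2.02 for Cd9, 1.998 for Folr4, 1.58 for Gja4 and 1.27 for Kit. These values share their libraries with the ratios above and are not further evidence. Median-of-ratios scaling gave 1.44 for Cd9, 1.39 for Folr4, 0.97 for Gja4 and 0.66 for Kit, so that 2 of 6 members stood at 1 or more, near the 32.7% of all genes. It shifted the all-gene median by -0.49, and the share of positive differences among those past 2-fold was 55.2%, against 68.7% as deposited.

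The 3' ends of the transcripts were read because the cytoplasmic polyadenylation element (CPE), bound by CPEB proteins, and the poly(A) signal are elements in the 3' UTR known to govern poly(A) tails of stored maternal mRNA. The CPE was searched as TTTTAT or TTTTAAT on the transcript strand, in the main transcript of each gene in GENCODE M21 (GRCm38, a later build than the files' mm9). Folr4 is named Izumo1r there, and matches of different motifs may share bases. All 6 members have the poly(A) signal AATAAA in the last 50 bases, where 80.2% of 7946 tested genes have this or ATTAAA. In the last 200 bases, Kit, Cd81 and Gja1 each have 1 CPE, and 31.5% of the tested genes have at least 1. Over its whole UTR of 395 bases Cd9 has a single CPE, 274 bases from the end, and none was found in the UTRs of Folr4 (333 bases) and Gja4 (546 bases). The following stretches of 30 bases show, with the element in capitals, the CPE nearest the end for the genes that have any: Cd9 at chr6:125460522-125460551 (minus strand), Cd81 at chr7:143067760-143067789 (plus strand), Kit at chr5:75656566-75656595 (plus strand) and Gja1 at chr10:56390386-56390415 (plus strand).
Cd9: ttctgtttgtctTTTTAATgctttattcat
Cd81: ttgctcacatctTTTTAATctttgttcctt
Kit: cctgaaaatattTTTTATatatacagtaac
Gja1: ttattcaataaaaTTTTAATttagtataat
For Folr4 and Gja4 the poly(A) signal is shown instead, at chr9:14900027-14900056 and chr4:127311425-127311454 (both minus strand).
Folr4: catggtaccttcAATAAAaggctaggaaac
Gja4: ttatgatcctcaAATAAAcaggactccatc

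In Gja1 the CPE starts 17 bases from the annotated end, just after the poly(A) signal, and in Kit 145 bases from it. Over the 2501 tested genes with a CPE in the last 200 bases the median wild-type log2 ratio of MII over GV was 0.13, and over the 5445 without it -1.36. In the libraries labelled Erk-/- these medians were 0.29 and -0.43. Whether the elements bear on the members' ratios was not tested. A Pumilio element, searched as TGTANATA on the same strand in the last 200 bases, was found in 8.68% of genes, once in Cd9 and at 2 places in Kit. The AU-rich pentamer ATTTA was found in 36.3% of genes, once each in Cd81 and Gja1. The annotated ends may not be those used in oocytes, and a match is no evidence that a protein binds there.

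Around the fusion genes, partners on the egg surface were mixed. Of 13 genes (Cd9 and Cd81 partners, integrins, proteins that tie the membrane to actin, and others), 10 passed the filter, and 4 were higher and 2 lower at MII in wild type. Of all genes 20.6% were higher and 49.6% lower. The median of these 10 was -0.33, and 0.46 under median-of-ratios scaling. Rdx, whose product radixin links membrane proteins to actin, had 230 FPKM in the MII library labelled Erk-/-, 86.7 in wild-type MII, 483 in Erk-/- GV and 492 in wild-type GV. The integrin genes Itga6 and Itga9 were higher at MII in both genotypes, with 78.0 and 60.7 FPKM in the MII library labelled Erk-/- and 38.4 and 20.0 in Erk-/- GV. In wild type they had 82.3 and 72.1 FPKM at MII and 27.1 and 20.4 at GV. Piga, which acts in making the GPI anchor that JUNO carries, had 18.6 FPKM in the MII library labelled Erk-/-, 23.8 in wild-type MII, 5.59 in Erk-/- GV and 8.46 in wild-type GV. Astl, which encodes ovastacin, the protease that cleaves the zona after fertilization, had 505 to 598 FPKM in all 4 libraries. At MII 4 of the 10 were higher in the library labelled Erk-/- (31.4% of all genes) and none lower (7.43%). Under median-of-ratios scaling 2 were higher, against 24.6% of all genes. Itgb1, the integrin beta 1 gene, had 17.8 FPKM in the MII library labelled Erk-/- and 3.66 in wild-type MII. The CD9 partner gene Igsf8 had 3.72 FPKM in the MII library labelled Erk-/- and was listed at 0 in wild-type MII, while Ptgfrn had 9.88 and 9.42, an order that turned under median-of-ratios scaling.

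Of 29 other tetraspanin genes 12 passed the filter, and 6 were lower and 2 higher at MII in wild type (median -1.59), shares near the 49.6% and 20.6% of all genes. At MII 31.4% of all genes were higher in the library labelled Erk-/- and 7.43% lower, with a median of 0.31 (0 under median-of-ratios scaling). Of these 12 tetraspanin genes 7 were higher and 1 lower, with a median of 1.28 (0.77 under that scaling). Tspan14 was the most abundant of them on average, with 189 FPKM in the MII library labelled Erk-/-, 138 in wild-type MII, 124 in Erk-/- GV and 133 in wild-type GV. Its order between genotypes turned under median-of-ratios scaling at MII and under rescaling to equal sums at GV. Tspan33 went with Cd9 in wild type, at 11.3% of its GV level, but stood at 18.7% in the libraries labelled Erk-/-. Tspan9 went the other way, with 29.3 FPKM in the MII library labelled Erk-/- and 137 in wild-type MII. Tspan8 had 24.3 FPKM in wild-type GV and was listed at 0 in the other libraries. Cd151, which belongs to this list and the one before, had 33.9 FPKM in the MII library labelled Erk-/- and 12.2 in wild-type MII.

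Of 25 genes of KIT signalling 22 passed the filter, and 12 were lower and 2 higher at MII in wild type (median -1.13), against 6 lower and 5 higher under median-of-ratios scaling. The share lower is near the 49.6% of all genes, and the median is near their -0.97. Under median-of-ratios scaling 40.4% of all genes were lower and 29.6% higher. Kitl, the ligand gene, is expressed in granulosa cells and reached at most 2.75 FPKM. Foxo3, the transcription factor that holds oocytes in reserve and is inhibited by this pathway, had 131 FPKM in the MII library labelled Erk-/-, 73.5 in wild-type MII, 40.5 in Erk-/- GV and 71.3 in wild-type GV. Pik3r1, the regulatory subunit gene of PI3 kinase, had 74.8 FPKM in wild-type MII and 8.10 in wild-type GV. Shc1, an adaptor of receptor tyrosine kinases, was higher at MII than at GV by 5.25-fold in the libraries labelled Erk-/- and 5.51-fold in wild type. Ptpn11, the gene of the phosphatase SHP2, had 42.6 FPKM in the MII library labelled Erk-/-, 19.1 in wild-type MII, 58.3 in Erk-/- GV and 64.9 in wild-type GV. Grb2, the adaptor gene downstream of Kit and Shc1, had 7.80 FPKM in the MII library labelled Erk-/- and 0.687 in wild-type MII. At MII 7 of the 22 were higher in the library labelled Erk-/- and 1 lower, against 4 and 5 under median-of-ratios scaling, which also turned the median of 0.42 to -0.01. The 7 of 22 is near the 31.4% of all genes. With median-of-ratios scaling 24.6% of all genes were higher and 17.1% lower, and their median also moved, from 0.31 to 0.

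Gja4 stood apart from the other connexins and pannexins in level. Of 21 such genes, 6 passed the filter, none exceeded 22.1 FPKM in any library, and 15 or 16 were listed at 0 in each library. Most of all 23309 symbols were also at 0 in both MII libraries and in wild-type GV. The highest value belonged to Panx1, a channel protein gene, with 22.1 FPKM in Erk-/- GV and 13.6 in wild-type GV. It had 1.52 FPKM in the MII library labelled Erk-/- and was listed at 0 in wild-type MII. Gja10 had 11.6 FPKM in wild-type GV and was listed at 0 in the other libraries. In wild type 4 of these 6 were lower and 2 higher at MII, against 49.6% and 20.6% of all genes. In the libraries labelled Erk-/- 3 were lower and 1 higher, against 35.6% and 22.9% of all genes.

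Genes of cell adhesion and of the transzonal projections, the granulosa cell extensions through which the gap junctions are reached, were split. Of 16 genes 15 passed the filter, and 6 were higher and 5 lower at MII in wild type (6 and 3 under median-of-ratios scaling). Of all genes 20.6% were higher and 49.6% lower (29.6% and 40.4% under that scaling). Cdh1, the E-cadherin gene, had 150 FPKM in the MII library labelled Erk-/-, 226 in wild-type MII, 36.5 in Erk-/- GV and 47.6 in wild-type GV. The catenin genes Ctnna1 and Ctnnb1 were likewise higher at MII, with 146 and 157 FPKM in the MII library labelled Erk-/- and 31.2 and 98.9 in Erk-/- GV. Myo10, the myosin of filopodia, had 29.8 FPKM in the MII library labelled Erk-/- and 3.23 in wild-type MII, and had 34.8 in Erk-/- GV and 39.0 in wild-type GV. Daam1, a formin of the actin skeleton, had 73.4 FPKM in the MII library labelled Erk-/- and 126 in wild-type MII. Pvrl3, the nectin 3 gene, had 8.62 FPKM in the MII library labelled Erk-/- and 3.55 in wild-type MII, and had 64.2 in Erk-/- GV and 62.6 in wild-type GV. At MII 6 of the 15 were higher in the library labelled Erk-/- and 1 lower, against 31.4% and 7.43% of all genes. Under median-of-ratios scaling 4 were higher and 5 lower, against 24.6% and 17.1% of all genes.

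**Figure D4:**
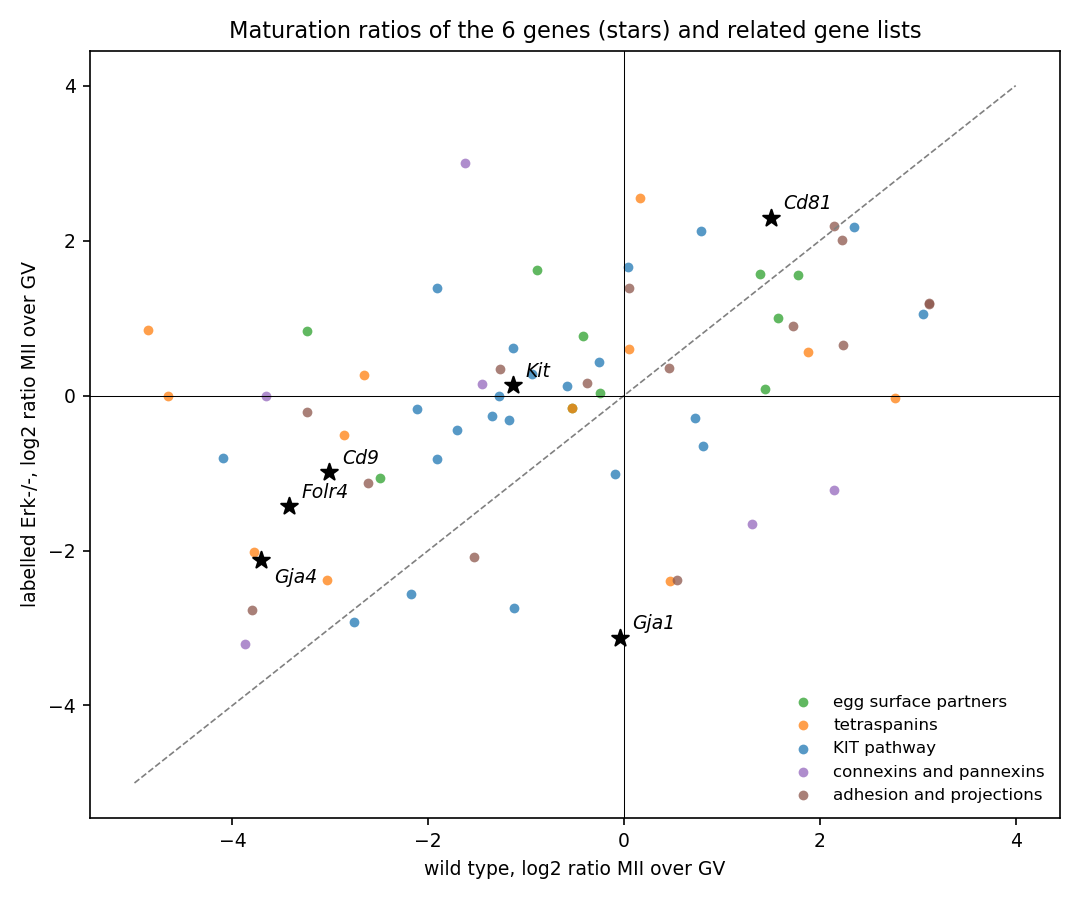
Log2 ratio of MII over GV in wild type (horizontal) and in the libraries labelled Erk-/- (vertical) for the 6 genes (stars) and the tested genes of 5 related lists (dots), with equality as a dashed line. Cd9, Folr4, Gja4 and Kit lie above the line on the left, Cd81 in the upper right, and Gja1 at -3.12 on the vertical axis.

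Among 5294 genes that averaged 10 FPKM or more, the genes most like each member over the 4 libraries were found by the Euclidean distance between their log2(FPKM + 1), each centred on its own mean. Nearest to Cd9 were Zfp687, Chrnd and Rps3 (distance 0.218 to 0.319), and nearest to Folr4 were Tdrd5, Fbxl14 and Mcph1 (0.0624 to 0.143). Nearest to Kit were Gucy2e, Tspyl1 and Mon2 (0.0757 to 0.130), and nearest to Gja4 were Lsm10, Itpk1 and Thap11 (0.112 to 0.242). Among the members themselves, Folr4 and Gja4 were closest to each other, at a distance of 0.575, where Gja4 ranked 140 among all genes for Folr4. Kit was 2.02 to 2.52 away from the other abundant members. Distances over 4 libraries describe these libraries and carry no test.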

How the data were processed

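Per the file headers, the deposited values are FPKM per gene with a lower and an upper bound. The submitters' processing notes name CASAVA 1.8, TopHat and build mm9. For the FPKM program, annotation, strandedness and level of the bounds, nothing is given in the sources used here. The deposited value exceeded its own upper bound in 709 to 1018 of 23813 rows per library, and no bounds are quoted there. The 260 symbols on several rows were summed. Depth is unknown, so no counting interval is given. Groups follow the sample titles.

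With Python 3.11.15, pandas 2.3.3 and numpy 2.4.6, ratios were taken as log2((FPKM + 1)/(FPKM + 1)), by a procedure tested on simulated data. With 1 library per group no p-value is given. The rule for named genes took the 6 members, Mapk3, the 3 nearest patterns of each abundant member, and up to 3 genes of largest ratio per list and comparison with at least 10 FPKM. Astl, Igsf8, Kitl, Cdh1, Ctnnb1 and some of the markers were named after their values were seen. The members and lists were chosen with earlier results of these data known. Alternatives were 2 pseudocounts, 2 scalings, 3 filters, the treatment of repeated symbols and, chosen after seeing the data, the midpoint of the bounds. Protein sequences were not used here.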

Additional observations from a re-analysis of the deposited data

Results flagged for a closer look

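In some genes the log2 ratio of MII over GV had opposite signs in the genotypes. The difference was not tested, as each group is 1 library. Kit was the only member of this kind past 2-fold, with 0.14 in the libraries labelled Erk-/-, -1.14 in wild type and a difference of 1.27. Of 34 genes named from the lists by rule, 7 had opposite signs and ratios at least 2-fold apart. Of all 9990 tested genes 22.0% (2201) did. The rule took the largest ratios in these same comparisons, so the count of named genes cannot be set against that share. The difference, labelled Erk-/- minus wild type, was 2.52 for Itgb1, 1.75 for the kinase gene Pdpk1, 1.18 for Ptgfrn and 1.61 for the tight junction gene Tjp1. It was 2.92 for Tspan3, 5.71 for Tspan31 and -2.81 for Tspan9. Tspan31 was listed at 0 in wild-type MII, so its value depends on the pseudocount. Under median-of-ratios scaling the difference of Kit was 0.66, below 2-fold. There the wild-type ratio of Ptgfrn was 0.34 and the ratio of Tspan9 in the libraries labelled Erk-/- was 0.16, so that their signs were no longer opposite.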

How the results depend on the processing

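Of 250 member values recomputed under 9 alternatives, 232 kept their direction and their side of the 2-fold mark, and none past it changed sign. The filters and the treatment of repeated symbols cannot change a member's ratio, so those values were fixed in advance. Of the others, 30 of 30 were kept with the midpoint of the bounds and 28 of 30 with a pseudocount of 0.1. Kept values numbered 28 of 30 under rescaling to equal sums, 24 of 30 under median-of-ratios scaling and 22 of 30 with a pseudocount of 10. With a pseudocount of 10, members higher at MII numbered 0 in each genotype (9.22% of all genes in the libraries labelled Erk-/-, 11.0% in wild type). Members higher in Erk-/- numbered 1 at GV (6.35% of all genes) and 3 at MII (8.68%). The difference of ratios was at most -1 in 0 (7.74%). Under median-of-ratios scaling 3 members were higher in the MII library labelled Erk-/-, against 24.6% of all genes, and the difference was at least 1 in 2 of 6, near the 32.7% of all genes. A mean of at least 10 FPKM, or leaving out genes listed at 0, drops Cd81 and Gja1, so that of 4 members 0 were higher at MII in each genotype, 1 was higher in Erk-/- at GV, and the difference was at most -1 in 0. Over all genes the higher and lower counts were 2289 and 3560 for maturation in the libraries labelled Erk-/-, 2054 and 4952 for maturation in wild type, 3139 and 742 between genotypes at MII, 1838 and 2288 at GV, and 4120 and 1881 for the difference. A pseudocount of 10 gave, in the same order, 921 and 1881, 1098 and 2883, 867 and 132, 634 and 804, and 1826 and 773. Median-of-ratios scaling gave 1704 lower at MII. A mean of at least 10 FPKM, which tests fewer genes, gave 1170 and 1854, 1218 and 2553, 1754 and 281, 647 and 788, and 2070 and 742, and leaving out genes listed at 0 gave 1449 and 2220, 1457 and 3196, 1980 and 428, 966 and 1183, and 2538 and 1101. Leaving out a library was not run, since it would leave a group empty. No paired analysis was possible because each group has 1 library and the labels give no replicate numbers. Cd81 and Gja1 rest on a few FPKM, where the pseudocount weighs most.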
